A study of Mus musculus with 10 samples.

Results

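The genes described here are the Wnt ligands and the cell-surface receptors and co-receptors of their signalling, taken by symbol as the complete families: 19 Wnt ligands, 10 Frizzled receptors, the LRP co-receptors Lrp5 and Lrp6, the R-spondin receptors Lgr4, Lgr5 and Lgr6, and the kinase-like receptors Ror1, Ror2 and Ryk. All 37 were found among the 24000 rows of each deposited table, and the rule uses no expression value. The study sorted mammary epithelial cells by flow cytometry from female mice with or without Bptf, a chromatin-reading subunit of the nucleosome remodelling factor NURF, and sequenced their RNA in 10 libraries, 2 per group. The groups were Bsecs from Bptf KO mice (a sorted epithelial population whose short name the labels do not spell out), luminal cells from KO and WT mice, and myoepithelial (basal) cells from KO and WT mice. Every mouse, WT mice included, had received tamoxifen, at a total of 15 mg/kg body weight. The labels give neither the age of the mice nor the allele or Cre driver behind the knockout.

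The files hold 6 comparisons of 1 column against 1 column and 5 distinct columns in all, so no value below has a spread between replicates, and no source says whether 1 column joins the 2 libraries of a group. The names of the basal columns conflict. The column with 2036681 reads is headed KO in one table and WT in another, and the column with 2359861 reads has the reverse, so they are told apart here by size, as smaller and larger, and no genotype is read from them. The source label of the KO luminal libraries says WT mice while their titles say KO. Bptf itself had 680 normalised counts in Bsecs and 736 in KO luminal cells, against 572 in WT luminal cells, and 558 and 750 in the smaller and larger basal columns. Counts over a whole gene cannot show whether an exon was removed, so these values do not check the knockout labels. Normalised counts are reads divided by 1 factor per column, which puts the 5 columns on a common scale.

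Wnt proteins are secreted, lipid-modified signals. In the canonical pathway a Wnt bridges a Frizzled receptor and an LRP co-receptor, which protects beta-catenin from breakdown and lets it activate genes with TCF/LEF factors. R-spondins acting through LGR receptors keep Frizzleds on the cell surface, while Ror1, Ror2 and Ryk carry responses that do not need beta-catenin. In the mouse mammary gland, Wnt4 made by luminal cells in response to progesterone signals to neighbouring basal cells, and basal stem cells depend on Wnt signalling.

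Depth and cell markers set how far each value can be read. The columns held 2036681 to 3840462 reads, and ribosomal RNA (Rn45s) took 32.2% of them in Bsecs, against 9.76% to 16.2% in the others. Of 12 luminal markers, 11 were read in Bsecs, with a summed level of 55950 normalised counts, against 76331 in KO and 66816 in WT luminal cells and 4995 and 3731 in the smaller and larger basal columns. All 12 basal markers were read in Bsecs, at 17742 normalised counts, against 831 in KO and 673 in WT luminal cells and 49988 and 28258 in the smaller and larger basal columns. Markers of both lists were thus read in Bsecs at levels between those of the luminal and basal columns. Fibroblast markers summed to 465 normalised counts in Bsecs and 1190 and 934 in KO and WT luminal cells, against 932 in the smaller basal column and 3418 in the larger, all 8 markers being read in Bsecs and in both basal columns; Col1a1 was at 0 in KO luminal cells and Col1a2 and Fbn1 in WT luminal cells. In sorted bulk RNA, fewer cells of a type and less RNA per cell cannot be told apart.

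The promoters of 5 members are shown here, 3 of genes highest in a basal column and 2 of genes highest in a luminal one, so that the start regions of both kinds can be read side by side. They were chosen after the values were seen, from the members with an entry in the table used, and the read counts given later come from whole genes and not from these windows. They run from 250 bases before to 50 after the start of transcription, are written 5′ to 3′ on the gene's strand, and come from RefSeq on GRCm38.p6, a later build than the mm9 the authors used. Capitals mark matches to 3 motifs searched on both strands. The TCF/LEF motif is CTTTGNN with A or T at either N, the GATA motif is NGATAN with A or T before the core and A or G after it, and the TATA motif is TATAAA; the motifs may overlap. Fzd7, Fzd1 and Lgr4 are the genes highest in a basal column, Fzd10 and Wnt4 those highest in a luminal one.
Fzd7, chr1:59481897-59482196, plus strand: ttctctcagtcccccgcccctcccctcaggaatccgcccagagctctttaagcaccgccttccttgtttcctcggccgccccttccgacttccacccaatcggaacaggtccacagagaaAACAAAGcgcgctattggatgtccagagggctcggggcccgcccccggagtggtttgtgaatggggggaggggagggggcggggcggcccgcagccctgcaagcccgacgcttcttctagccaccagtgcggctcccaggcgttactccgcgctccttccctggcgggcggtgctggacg
Fzd1, chr5:4758167-4758466, minus strand: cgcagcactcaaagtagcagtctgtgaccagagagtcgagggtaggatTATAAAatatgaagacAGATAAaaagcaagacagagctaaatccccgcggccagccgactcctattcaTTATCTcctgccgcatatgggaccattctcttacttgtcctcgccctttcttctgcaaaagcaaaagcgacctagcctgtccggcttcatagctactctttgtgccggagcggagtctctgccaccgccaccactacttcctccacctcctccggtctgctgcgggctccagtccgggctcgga
Lgr4, chr2:109917397-109917696, plus strand: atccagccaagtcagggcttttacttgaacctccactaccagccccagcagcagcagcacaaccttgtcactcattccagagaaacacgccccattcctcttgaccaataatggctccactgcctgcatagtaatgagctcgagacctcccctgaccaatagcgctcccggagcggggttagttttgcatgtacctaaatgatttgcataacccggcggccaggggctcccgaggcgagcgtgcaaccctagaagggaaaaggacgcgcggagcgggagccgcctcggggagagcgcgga
Fzd10, chr5:128600856-128601155, plus strand: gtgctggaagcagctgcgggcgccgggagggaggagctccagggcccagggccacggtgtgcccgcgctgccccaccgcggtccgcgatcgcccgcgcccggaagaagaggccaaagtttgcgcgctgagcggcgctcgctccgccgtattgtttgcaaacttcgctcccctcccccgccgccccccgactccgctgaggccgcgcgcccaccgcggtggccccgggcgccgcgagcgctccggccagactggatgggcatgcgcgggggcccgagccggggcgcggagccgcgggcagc
Wnt4, chr4:137277385-137277684, plus strand: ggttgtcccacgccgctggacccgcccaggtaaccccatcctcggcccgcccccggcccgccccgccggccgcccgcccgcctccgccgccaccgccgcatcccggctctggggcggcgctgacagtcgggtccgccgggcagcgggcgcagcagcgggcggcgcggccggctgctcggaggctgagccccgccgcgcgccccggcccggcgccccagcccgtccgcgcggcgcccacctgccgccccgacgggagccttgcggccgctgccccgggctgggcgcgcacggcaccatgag

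The Fzd7 window held 1 TCF/LEF word, CTTTGTT on the opposite strand, beginning 130 bases before the start site. Such a word was present in 16.9% of all 32851 promoters of this length and in 4 of the 29 promoters listed for members, so its presence is a description and not a site. The Fzd1 window held the GATA word AGATAA at 186 bases before the start and, on the opposite strand, at 134, and a TATA word at 202. GATA words stood in 29.8% and TATA words in 13.6% of all promoters. None of these letters occurs in the windows of Lgr4, Fzd10 and Wnt4. GC content was 66.7% for Fzd7, 54.0% for Fzd1, 58.3% for Lgr4, 77.7% for Fzd10 and 84.3% for Wnt4, beside medians of 70.7% over the members' promoters and 52.7% over all. The table held entries for 26 of the 37 members.

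Of the 37 members, 6 had no read in any column: the ligands Wnt1, Wnt2, Wnt3a, Wnt7a and Wnt9b, and the receptor Fzd9. A further 11 never reached 30 reads, and 20 had at least 30 in a column. Bsecs showed reads of 26 members, KO luminal cells of 25 and WT luminal cells of 22, and the smaller and larger basal columns of 23 and 26. A gene without a read may still be present below 3 reads, which is 3.16 normalised counts in Bsecs.

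**Figure D1:**
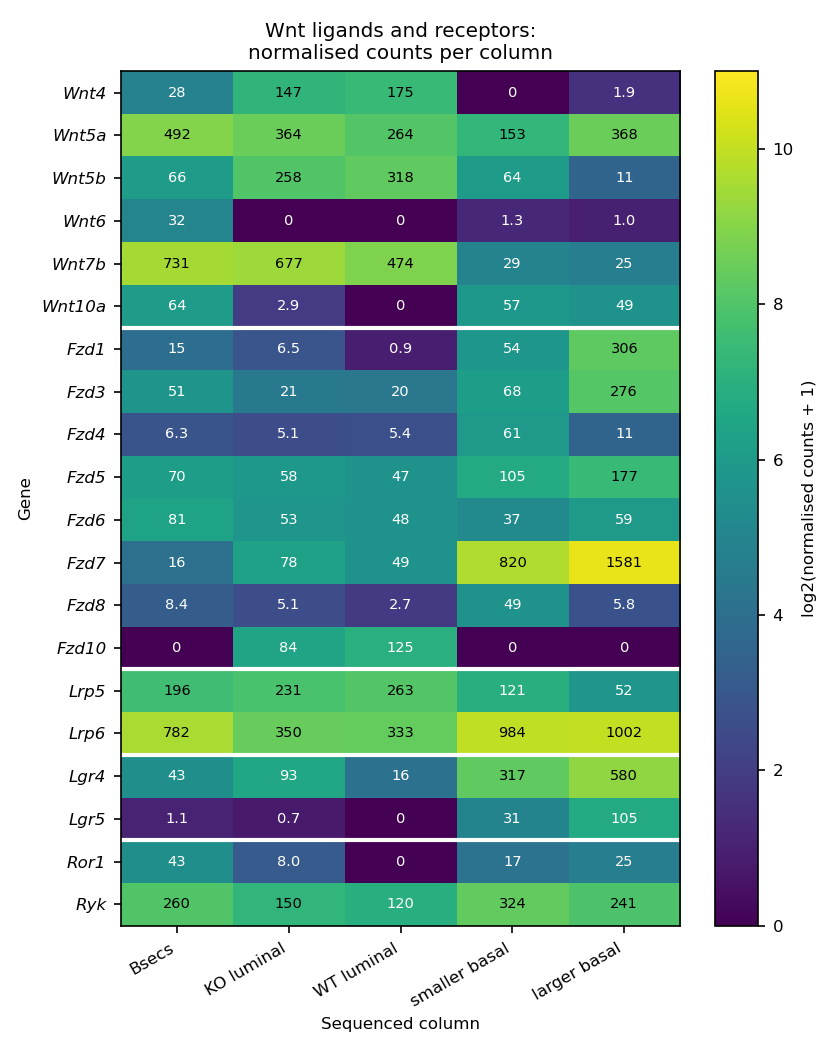
Normalised counts of the 20 members with at least 30 reads in a column (rows, grouped by white lines into ligands, Frizzleds, LRP, LGR and ROR/RYK) in the 5 sequenced columns, on the common scale. Colour is log2 of the count plus 1 and the printed number is the count. Wnt7b is high in Bsecs and luminal columns and Fzd7 in the basal columns, where it reaches 820.5 and 1581.

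Per kilobase of exon, Wnt7b was the leading ligand of Bsecs and of KO luminal cells. Wnt7b, a ligand that can act through beta-catenin, had 731 normalised counts in Bsecs, 677 in KO luminal cells and 474 in WT luminal cells, against 29.2 in the smaller basal column and 25.0 in the larger. The Bsecs and luminal columns thus lay far above both basal columns. Wnt7b was 24.8-fold higher in Bsecs than in the smaller basal column (95% interval of the read split 16.3 to 39.9) and 29.4-fold higher than in the larger (19.9 to 45.3). The authors' deposited table gave it an unadjusted DESeq p of 0.00110 against the smaller and 0.000715 against the larger column, and adjusted values of 0.0992 and 0.0990 missed 0.05. Against KO and WT luminal cells the Bsecs level was 1.11-fold (1.01 to 1.23) and 1.61-fold (1.43 to 1.80). These directions depend on the scale. Scaling by total reads without Rn45s would shift the log2 fold over KO luminal cells, 0.15, by -0.21. With Rn45s in the total, the log2 fold over WT luminal cells, 0.69, would shift by -0.72. Exons of Wnt7b share 236 bases, 5.12% of their length, with a gene on the other strand, AU022754, which had 2 reads in Bsecs, 22 in KO and 25 in WT luminal cells and 0 in both basal columns. Whether the counting used strand is not given in the sources used here.

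Wnt4, the progesterone-responsive ligand of the gland, was intermediate in Bsecs. It had 28.4 normalised counts in Bsecs, 147 in KO luminal cells and 175 in WT luminal cells, against 0 in the smaller basal column and 1.92 in the larger, the last from 2 reads. Bsecs therefore lay below both luminal columns and above both basal columns. The Bsecs level was 5.01-fold (3.34 to 7.79) lower than in KO luminal cells and 5.90-fold (3.93 to 9.18) lower than in WT luminal cells. It was at least 7.09-fold higher than in the smaller basal column, where the 0 was set to 3 reads, and 14.9-fold (3.73 to 129) higher than in the larger.

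Wnt5b, a ligand mostly known for signalling without beta-catenin, set Bsecs apart from luminal cells as well. Its level was 66.4 normalised counts in Bsecs, 258 in KO luminal cells and 318 in WT luminal cells, against 63.7 in the smaller basal column and 10.6 in the larger. The ratio of Bsecs to the smaller basal column was 1.03 (0.699 to 1.54). The Bsecs value was 3.78-fold (2.88 to 5.02) lower than in KO luminal cells and 4.59-fold (3.50 to 6.10) lower than in WT luminal cells, and 6.30-fold (3.29 to 13.3) higher than in the larger basal column. Wnt5a, the closest relative of Wnt5b, was past 4-fold in no comparison, at 492 normalised counts in Bsecs, 364 in KO luminal cells and 264 in WT luminal cells, and 153 and 368 in the smaller and larger basal columns.

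Wnt10a, a canonical ligand, ran the other way. It had 64.3 normalised counts in Bsecs, 2.89 in KO luminal cells and 0 in WT luminal cells, against 57.1 and 49.0 in the smaller and larger basal columns. Bsecs matched the basal columns within counting error, the ratios being 1.12 (0.744 to 1.69) to the smaller and 1.32 (0.892 to 1.95) to the larger. The Bsecs level was 22.9-fold (8.49 to 86.6) higher than in KO luminal cells and at least 25.0-fold higher than in WT luminal cells, where no read was found.

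Wnt6, another canonical ligand, was read almost nowhere but in Bsecs. It had 30 reads in Bsecs and 0 in both luminal columns, against 1 read each in the smaller and larger basal columns. The Bsecs level was at least 15.0-fold higher than in KO luminal cells and at least 12.3-fold higher than in WT luminal cells. Against the single reads of the smaller and larger basal columns the ratios were 23.6 (3.93 to 964) and 33.0 (5.49 to 1346), so their size is poorly known.

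The remaining ligands gave few reads. Wnt10b had 4 reads in Bsecs and 0 in every other column. Wnt9a had 18 reads in Bsecs, 3 in KO luminal cells and 8 in WT luminal cells, and 9 and 1 in the smaller and larger basal columns. Wnt11 had 25 in Bsecs, 15 in KO luminal cells and 13 in WT luminal cells, and 12 and 3 in the smaller and larger basal columns. Both had their highest value in Bsecs, though the intervals of the ratios are wide. Wnt9a was 9-fold (2.63 to 47.7) higher than in KO luminal cells and Wnt11 9.17-fold (2.80 to 47.4) higher than in the larger basal column. Over the smaller basal column, the next highest, the ratios were 1.58 (0.672 to 3.98) for Wnt9a and 1.64 (0.794 to 3.58) for Wnt11. These intervals include 1, so the counts do not settle which column is highest. Wnt2b reached 25 reads in KO luminal cells and at most 15 elsewhere, and Wnt3, Wnt8a, Wnt8b and Wnt16 had at most 2 reads in any column. Part of Wnt11 overlaps a gene on the other strand that the tables do not list.

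Levels of different ligands were compared per kilobase of exon, using GENCODE M21 gene lengths. The 19 ligands summed to 318 normalised counts per kb in Bsecs, 341 in KO luminal cells and 308 in WT luminal cells, against 87.8 and 89.4 in the smaller and larger basal columns. Wnt7b made up 49.9% of that sum in Bsecs, 43.0% in KO luminal cells and 33.4% in WT luminal cells, against 7.21% and 6.06% in the smaller and larger basal columns. The sums of Bsecs and luminal cells lay close together, while the genes behind them differed. Wnt5b and Wnt4 gave 7.87% and 2.13% in Bsecs, 28.5% and 10.3% in KO luminal cells, and 38.9% and 13.6% in WT luminal cells. Wnt10a gave 8.20% in Bsecs, 0.343% in KO luminal cells and 0% in WT luminal cells, against 26.3% and 22.2% in the smaller and larger basal columns. Wnt5a was the leading ligand of the larger basal column, at 58.6%, and gave 24.7% in the smaller.

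**Figure D2:**
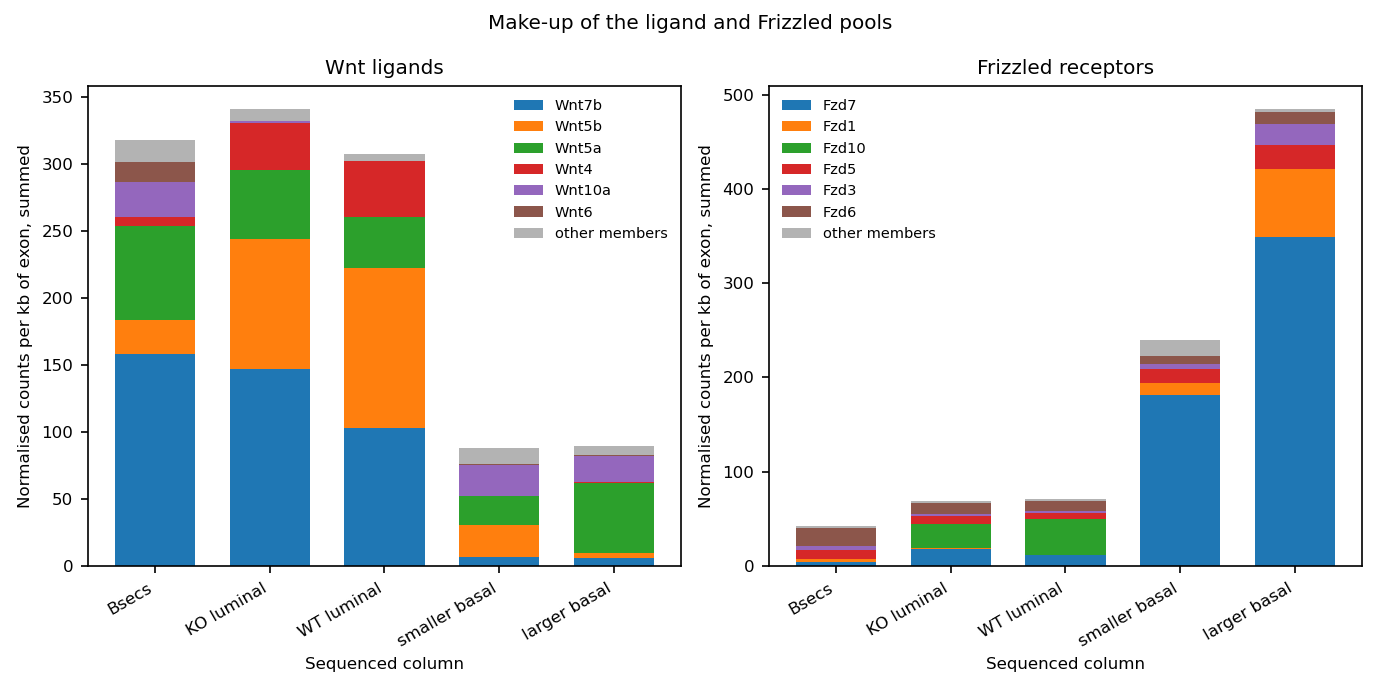
Stacked bars of normalised counts per kilobase of exon summed over the ligands (left) and the Frizzleds (right) in each of the 5 columns, with 6 genes coloured and the rest in grey. Bsecs has a ligand sum of 318, near the luminal columns, and a Frizzled sum of 41.9, the lowest of the 5 columns, against 240 and 485 in the basal columns.

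The Frizzled sum was lowest in Bsecs and highest in the basal columns, where it was mostly Fzd7, and the other Frizzleds did not share 1 order. Their 10 genes summed to 41.9 normalised counts per kb in Bsecs, 68.2 in KO luminal cells and 70.4 in WT luminal cells, against 240 and 485 in the smaller and larger basal columns. Fzd7, a receptor tied to mammary basal and stem cells, was the leading Frizzled of both basal columns. It made up 8.32% of the Frizzled sum in Bsecs, 25.2% in KO luminal cells and 15.4% in WT luminal cells, against 75.3% and 71.9% in the smaller and larger basal columns. In Bsecs the leading Frizzled was Fzd6, a receptor of planar polarity, at 44.2%, followed by Fzd5 at 24.0%.

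Fzd7 was the 1 member that passed the test, and it fell in Bsecs against both basal columns. It had 15.8 normalised counts in Bsecs, 78.1 in KO luminal cells and 49.1 in WT luminal cells, against 820.5 in the smaller basal column and 1581 in the larger. Bsecs was the lowest column of all, below luminal cells too. The level in Bsecs was 52.3-fold (31.5 to 94.0) lower than in the smaller basal column and 99.6-fold (60.2 to 178) lower than in the larger, with adjusted p = 0.0255 and 0.0221 from the authors' deposited tables (DESeq, Benjamini-Hochberg over all genes). Over all genes with a p-value, 0.759% were called against the smaller column, 0.380% being lower, and 0.480% against the larger, 0.254% being lower. The members with a p-value numbered 27 against the smaller column and 28 against the larger. By an unadjusted p under 0.05 there were 3 of them against the smaller column, where 4.91% of genes passed. Against the larger there were 5, where 4.61% did. edgeR's exact test with an assumed dispersion gave 7 against either column, where 10.2% and 8.51% of genes passed. Against KO luminal cells Fzd7 was 4.8-fold (2.78 to 8.87) lower and against WT luminal cells 2.98-fold (1.66 to 5.68) lower, with adjusted p = 1 in both from the authors' deposited tables (DESeq). The basal markers were also lower in Bsecs, with summed levels 17742 in Bsecs against 49988 and 28258 in the smaller and larger basal columns, and their part in the Fzd7 result was not tested.

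Fzd10 was read only in the luminal columns. It had 0 reads in Bsecs, 116 in KO luminal cells and 140 in WT luminal cells, and 0 in both basal columns. In Bsecs it was at least 25.8-fold lower than in KO luminal cells and at least 37.9-fold lower than in WT luminal cells, with unadjusted p = 0.00525 and 0.00203 and adjusted p = 0.535 and 0.273 from the authors' deposited tables (DESeq). Per kilobase it gave 37.8% of the Frizzled sum of KO luminal and 54.6% of that of WT luminal cells. Luminal markers summed to 55950 normalised counts in Bsecs, against 76331 in KO luminal cells and 66816 in WT luminal cells, 11 of 12 being read in Bsecs and Kit being at 0, and their part in the Fzd10 values was not tested.

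Fzd1 and Fzd3, a canonical and a polarity receptor, were highest in the larger basal column. Fzd1 had 14.8 normalised counts in Bsecs, 6.50 in KO luminal cells and 0.893 in WT luminal cells, against 54.4 in the smaller basal column and 306 in the larger. Fzd3 had 50.6 in Bsecs, 20.96 in KO luminal cells and 19.6 in WT luminal cells, against 67.7 in the smaller basal column and 276 in the larger. For both genes the larger basal column stood well above the smaller. In Bsecs, Fzd1 was 20.6-fold (12.1 to 38.2) and Fzd3 5.44-fold (3.99 to 7.54) lower than in the larger column, but 3.72-fold (1.99 to 7.39) and 1.35-fold (0.892 to 2.04) lower than in the smaller.

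Fzd4 and Fzd8 had the opposite order between the basal columns. Fzd4 had 6.32 normalised counts in Bsecs, 5.06 in KO luminal cells and 5.36 in WT luminal cells, against 61.1 in the smaller basal column and 10.6 in the larger. Fzd8 had 8.43 in Bsecs, 5.06 in KO luminal cells and 2.68 in WT luminal cells, against 49.1 in the smaller basal column and 5.77 in the larger. Only the smaller basal column was high for either gene. Their levels in Bsecs were 9.73-fold (4.15 to 27.9) and 5.87-fold (2.69 to 14.6) lower than in the smaller column.

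Fzd5 and Fzd6 were past 4-fold in no comparison. Fzd5 had 69.5 normalised counts in Bsecs, 57.8 in KO luminal cells and 47.3 in WT luminal cells, against 105 and 177 in the smaller and larger basal columns. Fzd6 had 81.1 in Bsecs, 52.8 in KO luminal cells and 48.2 in WT luminal cells, against 37.2 and 58.7 in the smaller and larger basal columns. Fzd6 had its highest value in Bsecs, while the other Frizzleds with at least 30 reads had theirs in another column. Its excess over the larger basal column, the next highest, was 1.39-fold (0.979 to 1.98), an interval that includes 1. Scaling by total reads with Rn45s would shift this log2 fold of 0.47 by -0.77 and so reverse it. Fzd5 and Fzd6 each overlap an opposite-strand gene that the tables do not list. Fzd2 had at most 2 reads in any column.

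The LRP co-receptors were read everywhere. Lrp6 had 782 normalised counts in Bsecs, 350 in KO luminal cells and 333 in WT luminal cells, against 984 and 1002 in the smaller and larger basal columns. Lrp5 had 196 in Bsecs, 231 in KO luminal cells and 263 in WT luminal cells, against 121 and 51.9 in the smaller and larger basal columns. The co-receptors thus ran in opposite directions, Lrp6 toward the basal columns and Lrp5 toward the luminal ones, and neither was past 4-fold in any comparison. Bsecs lay nearer the basal columns for Lrp6, 1.27-fold (1.14 to 1.41) below the smaller and 1.28-fold (1.16 to 1.40) below the larger, and 2.30-fold (2.05 to 2.58) above KO luminal and 2.45-fold (2.16 to 2.78) above WT luminal cells.

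Among the R-spondin receptors, Lgr4 and Lgr5 were high in the basal columns and low in Bsecs. Lgr4 had 43.2 normalised counts in Bsecs, 92.5 in KO luminal cells and 16.1 in WT luminal cells, against 317 in the smaller basal column and 580 in the larger. Lgr5, also known as a stem cell marker, had 1 read in Bsecs, 1 in KO luminal cells and 0 in WT luminal cells, against 23 in the smaller basal column and 109 in the larger. Both basal columns stood above every other column for either gene. Each column is 1 value, and the share of all genes with this order was not counted. Lgr4 in Bsecs was 7.40-fold (5.30 to 10.6) lower than in the smaller and 13.4-fold (9.74 to 18.8) lower than in the larger basal column, with unadjusted p = 0.0380 and 0.00606 and adjusted p = 0.893 and 0.358 from the authors' deposited tables (DESeq). Lgr5, resting on its 1 read in Bsecs, had ratios of 29.2 (4.74 to 1203) and 99.1 (17.4 to 3949). Lgr6 had 18 reads in Bsecs, 6 in KO luminal cells and 19 in WT luminal cells, and 21 and 24 in the smaller and larger basal columns, and only its 4.50-fold (1.71 to 13.8) excess in Bsecs over KO luminal cells was past 4-fold.

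Ror1 was highest in Bsecs, at 43.2 normalised counts, with 7.95 in KO luminal cells and 0 in WT luminal cells, against 17.3 and 25.0 in the smaller and larger basal columns. The Bsecs level was 5.59-fold (2.82 to 12.1) higher than in KO luminal cells and at least 16.8-fold higher than in WT luminal cells. It was 2.48-fold (1.30 to 5.05) higher than in the smaller and 1.73-fold (1.04 to 2.95) higher than in the larger basal column. The last of these depends on the scale. Total reads without Rn45s would shift its log2 fold of 0.79 by -0.36, and total reads with Rn45s by -0.77, leaving almost no excess. Ryk was past 4-fold in no comparison, at 260 in Bsecs, 150 in KO luminal cells and 120.5 in WT luminal cells, and 324 and 241 in the smaller and larger basal columns. Ror2 had at most 13 reads, which were in KO luminal cells.

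Counted over all members, Bsecs differed by at least 4-fold, at a mean value of 10 or more, in 8 of 22 members from the smaller basal column and in 10 of 19 from the larger, where 22.6% and 21.5% of all genes at that level did. For all genes 10.8% were higher and 11.8% lower against the smaller column, and 9.18% higher and 12.3% lower against the larger. The 3 members higher than in the smaller column were the ligands Wnt4, Wnt6 and Wnt7b, and the 5 lower ones were the receptors Fzd4, Fzd7, Fzd8, Lgr4 and Lgr5. The 5 higher than in the larger column were the ligands Wnt4, Wnt5b, Wnt6, Wnt7b and Wnt11, and the 5 lower ones the receptors Fzd1, Fzd3, Fzd7, Lgr4 and Lgr5. At this fold, each member that was higher is a ligand and each that was lower a receptor. With a fold of 2 this did not hold, since Fzd6 at 2.17-fold (1.39 to 3.47) and Ror1 were then among the 6 higher than in the smaller column, and Lrp5 at 3.79-fold (2.78 to 5.23) among the 6 higher than in the larger. With a minimum mean value of 50, 1 higher and 2 lower members were left against the smaller column, and 1 higher and 5 lower against the larger.

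Against KO luminal cells 8 of 21 members were past 4-fold and against WT luminal cells 6 of 19, where 24.2% and 26.4% of all genes were. Of all genes 7.81% were higher and 16.4% lower against KO luminal cells, and 10.6% higher and 15.8% lower against WT luminal cells. Higher than in KO luminal cells were Wnt6, Wnt9a, Wnt10a, Lgr6 and Ror1, and lower were Wnt4, Fzd7 and Fzd10. Higher than in WT luminal cells were Wnt6, Wnt10a and Ror1, and lower were Wnt4, Wnt5b and Fzd10. By adjusted p no member was called in either comparison, where 0.0405% and 0.210% of all genes were. Of 28 members with a p-value in each, 2 and 3 passed at an unadjusted p under 0.05, where 3.82% and 4.29% of genes did. By edgeR's exact test 3 and 5 passed, where 11.1% and 13.8% of genes did. All 4 comparisons share the Bsecs column, so they are not independent of each other.

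**Figure D3:**
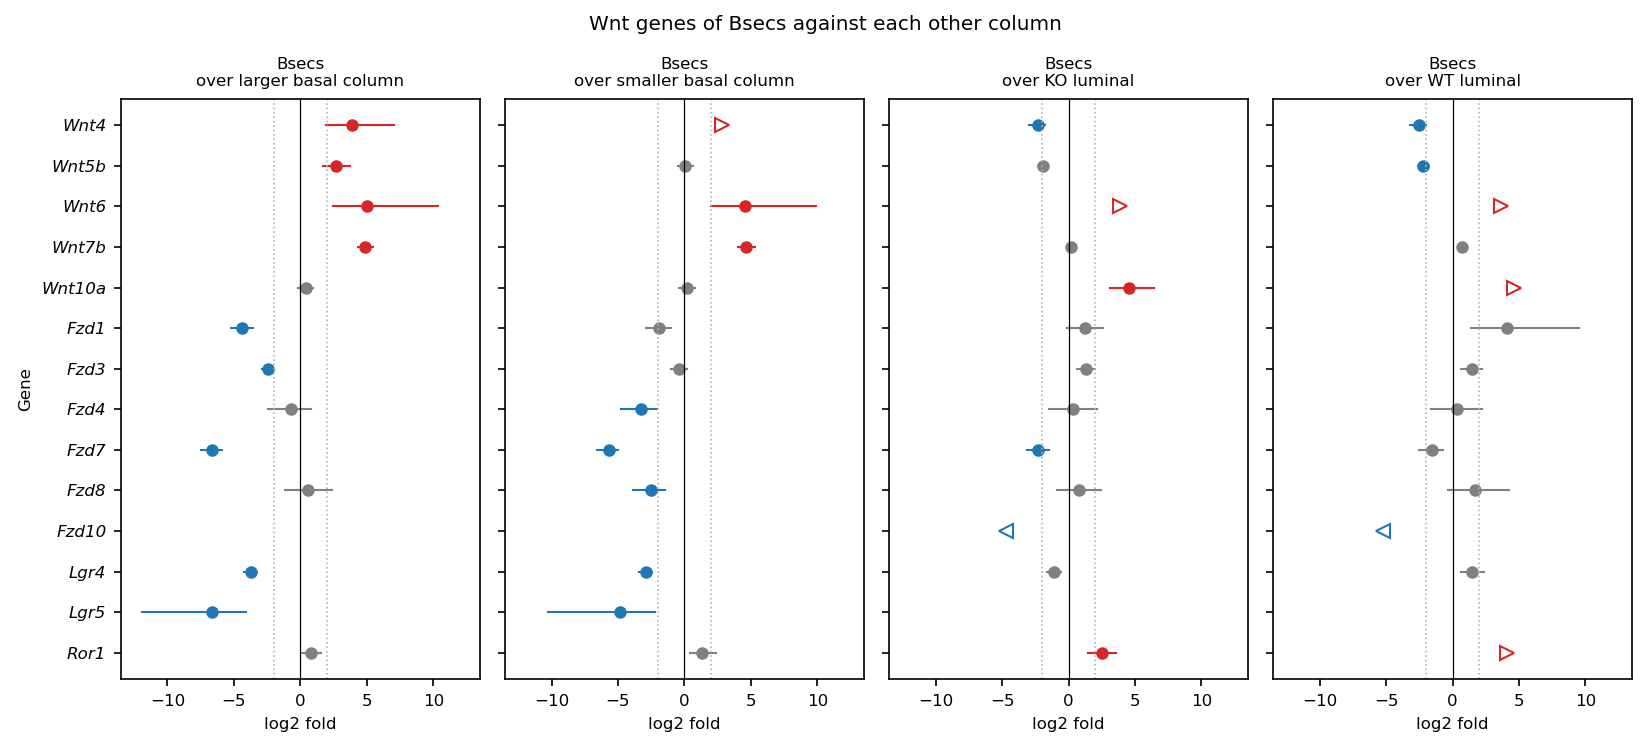
log2 fold of Bsecs over each of the other 4 columns for the 14 members with at least 30 reads in a column that were past 4-fold in a comparison or split by lineage. Bars are exact 95% intervals of the read split, open triangles are lower bounds of the size of the fold where a column had 0 reads, dotted lines mark 4-fold, and red and blue mark values past it (higher and lower) at a mean value of 10 or more. Against the basal columns the red points are ligands and the blue ones receptors, Fzd7 lying at -6.64 over the larger basal column and at -5.71 over the smaller.

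The medians over members show how far these shifts carry. For log2 folds of values plus 1, the median over the 12 ligands with a read was 0.80 for Bsecs over the smaller and 2.46 over the larger basal column, and that of the Frizzleds was -1.81 (7 genes) and -1.43 (8 genes), where all genes had medians of 0.10 and -0.21. With counts under 3 set to 3 and no value added, the ligand medians were 0.41 and 1.60 and the Frizzled medians -1.89 and -1.04. Over all members the median was 0.05 and 0.25, and with counts under 3 set to 3 it was -0.34 and 0.14, where all genes had -0.25 and 0.14, so its sign against the smaller column depends on how low counts are treated. Over KO and WT luminal cells it was 0.56 and 1.08, where all genes had -0.21 and -0.09. With counts under 3 set to 3 it was 0.585 and 0.76, where all genes had 0.17 and 0.23, so the sign for all genes also depends on how low counts are treated.

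Across the 4 luminal and basal columns, leaving Bsecs aside, 8 of 23 members at a level of 10 or more had every luminal column at least 4-fold above every basal column or the reverse, where 10.9% of 12148 genes did (6.73% higher in luminal and 4.19% in basal columns). Wnt4, Wnt5b, Wnt7b and Fzd10 were higher in luminal cells, and Wnt10a, Fzd1, Fzd7 and Lgr5 in basal cells. In Bsecs these 8 did not follow 1 lineage. Wnt7b lay with the luminal columns, Wnt10a with the basal columns, Fzd7 below both, and Fzd10 at 0 like the basal columns. Wnt4 and Fzd1 lay between the luminal and basal columns, Wnt5b near the smaller basal column, and Lgr5, at 1 read, near the luminal columns.

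Between the KO and WT luminal columns 2 of 16 members were past 4-fold, a share near that of all genes, 10.8%. Lgr4 was the largest difference at a sizeable count, with 128 reads in KO luminal against 18 in WT luminal cells, a 5.67-fold (3.45 to 9.86) excess, with unadjusted p = 0.0348 and adjusted p = 1 from the authors' deposited table (DESeq). Wnt2b, a canonical ligand, had 25 reads in KO luminal against 1 in WT luminal cells, a ratio of 19.9 (3.26 to 818). These were both higher in KO luminal cells, where 5.88% of all genes were higher and 4.96% lower, and 0 members were called by adjusted p, where 0.0882% of all genes were. Of 26 members with a p-value, 1 passed at an unadjusted p under 0.05, where 3.74% of genes did. By edgeR's exact test 0 passed, where 1.53% of genes did. Wnt4, Wnt5b and Fzd10 had KO over WT folds of 0.825 (0.675 to 1.01), 0.799 (0.688 to 0.928) and 0.660 (0.512 to 0.85), and Wnt7b 1.41 (1.26 to 1.57). The direction rests on titles that the source labels contradict.

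The basal columns differed from each other in 5 of 19 members, where 14.0% of all genes were past 4-fold (5.98% higher and 8.05% lower in the smaller column). Higher in the smaller column were Wnt5b at 6.11-fold (3.13 to 13), Fzd4 at 5.85-fold (2.99 to 12.5) and Fzd8 at 8.63-fold (3.61 to 25.0). Lower in the smaller column were Fzd1 at 5.54-fold (3.99 to 7.87) and Fzd3 at 4.02-fold (2.98 to 5.53). By adjusted p 0 of 27 members with a p-value were called, where 0.0274% of all genes were. At an unadjusted p under 0.05 there was 1, where 3.09% of genes passed, and by edgeR's exact test 0, where 2.40% did. Fibroblast markers summed to 932 normalised counts in the smaller and 3418 in the larger column, and basal markers to 49988 and 28258. Endothelial markers summed to 110 normalised counts in the smaller column, with 5 of 6 read and Emcn at 0, and 245 in the larger, with 6 of 6 read. Pericyte markers summed to 49.1 in the smaller column, with 4 of 6 read and Kcnj8 and Abcc9 at 0, and 137.5 in the larger, with 6 of 6 read. Adipocyte markers summed to 106 in the smaller and 30.8 in the larger column, with 2 of 5 read and Adipoq, Plin1 and Cidec at 0 in both. The part of any of these in the differences between the basal columns was not tested.

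**Figure D4:**
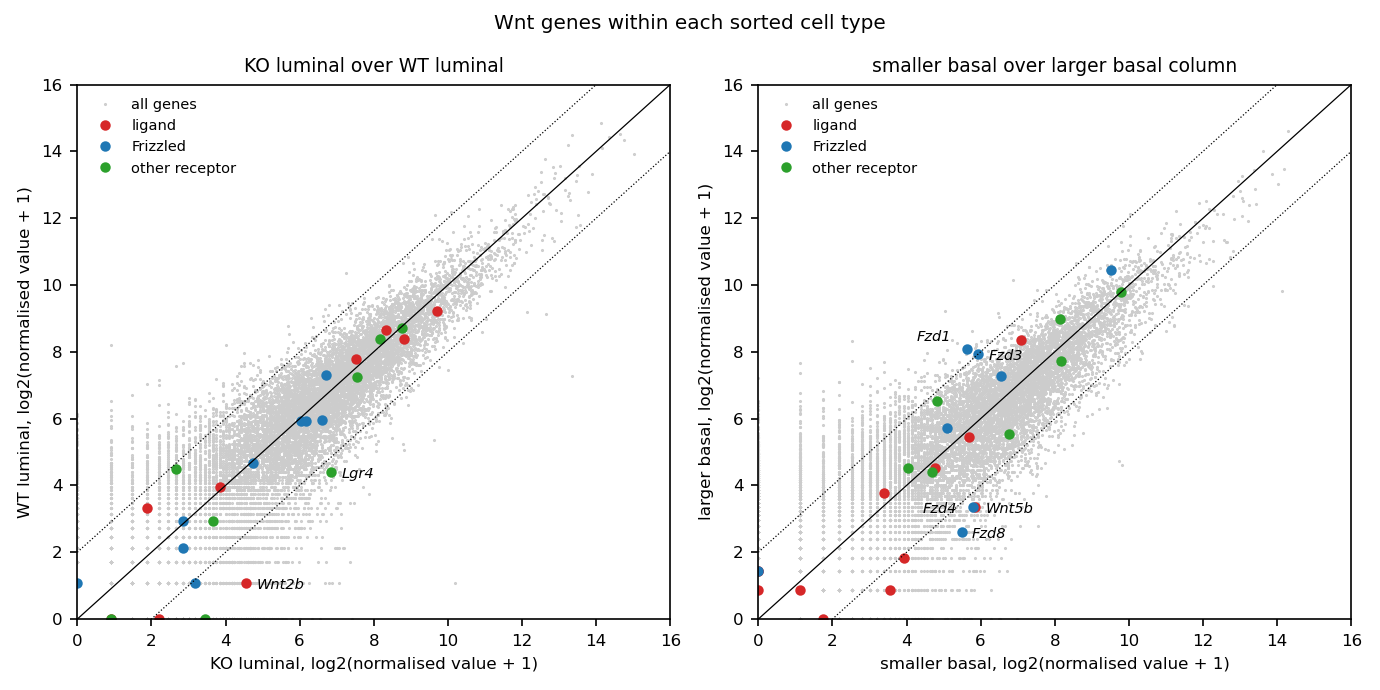
log2 of normalised value plus 1 for KO luminal against WT luminal cells (left) and the smaller against the larger basal column (right), with all genes in grey, ligands in red, Frizzleds in blue and other receptors in green; dotted lines mark 4-fold and the named members are past it at a mean value of 10 or more. In the luminal panel 2 members are named, in the basal panel 5.

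The rest of the pathway was read from lists of 8 to 20 genes, and no gene in them passed the adjusted test in any comparison. Counts past 4-fold are given over the genes of a list that reached a mean value of 10. Beside them, the shares of all genes higher and lower in Bsecs were 10.8% and 11.8% against the smaller basal column, 9.18% and 12.3% against the larger, 7.81% and 16.4% against KO luminal cells and 10.6% and 15.8% against WT luminal cells. With so few genes a list, these counts are descriptions. Among 16 secreted inhibitors, Sfrp1, which binds Wnts, had 0 normalised counts in Bsecs, 19.5 in KO luminal cells and 6.25 in WT luminal cells, against 137 and 116 in the smaller and larger basal columns. It was at least 43.6-fold lower in Bsecs than in the smaller and at least 36.7-fold lower than in the larger basal column. Wif1, a Wnt-binding inhibitor, had 4.21 in Bsecs and 0 in both luminal columns, against 280 and 35.6 in the smaller and larger basal columns. Both inhibitors were thus lower in Bsecs than in either basal column. Notum, which strips the lipid from Wnts, had 22 reads in Bsecs and 0 in every other column. Dkkl1, a Dickkopf-like gene, had 4 reads in Bsecs, against 242 in KO and 167 in WT luminal cells, and 0 in both basal columns. In all, 2 of 3 inhibitors that reached the mean value were past 4-fold lower and 0 higher in Bsecs than in the smaller basal column, and 4 of 6 lower and 1 higher than in the larger. Against KO luminal cells 2 of 4 were lower and 1 higher, and against WT luminal cells 1 of 3 was lower and 1 higher.

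Of 8 genes of Wnt secretion, R-spondins and their ligases, Rnf43, a ligase that removes Frizzleds from the surface, had 266 normalised counts in Bsecs, 35.4 in KO luminal cells and 25.9 in WT luminal cells, against 18.6 and 94.2 in the smaller and larger basal columns. Bsecs was highest, by 14.2-fold (8.29 to 26.3) over the smaller basal column, 2.83-fold (2.23 to 3.61) over the larger, 7.71-fold (5.66 to 10.7) over KO luminal and 10.7-fold (7.27 to 16.3) over WT luminal cells. Porcn, the enzyme that lipidates Wnts, had 297 reads in KO luminal against 33 in WT luminal cells, 7.17-fold (4.99 to 10.6) more. Znrf3, a relative of Rnf43, had 82.2 normalised counts in Bsecs, 16.6 in KO luminal cells and 37.5 in WT luminal cells, against 250.9 and 66.35 in the smaller and larger basal columns. Bsecs was above both luminal columns in both ligases. The share of all genes that were highest in Bsecs, as Rnf43 was, was not counted. Wls, the Wnt carrier, was past 4-fold in none of the 6 comparisons. Of the 4 genes of this list that reached the mean value in each Bsecs comparison, 1 was past 4-fold higher against the smaller basal column, 0 were past it against the larger, 2 were higher and 1 lower against KO luminal cells, and 1 was higher against WT luminal cells.

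Of 20 membrane and polarity genes, Sdc1, a heparan sulphate co-receptor, had 1897 normalised counts in Bsecs, 331 in KO luminal cells and 137 in WT luminal cells, against 121 and 301 in the smaller and larger basal columns. It was past 4-fold higher in Bsecs in all 4 comparisons. The folds were 15.6 (12.6 to 19.4) and 6.33 (5.61 to 7.16) over the smaller and larger basal columns. Over KO and WT luminal cells they were 5.90 (5.32 to 6.55) and 14.5 (12.3 to 17.2). These comparisons share the Bsecs column, and the share of all genes higher in all 4 was not counted. Gpc3, a glypican, had 2.11 in Bsecs and 0 in both luminal columns, against 62.4 and 57.7 in the smaller and larger basal columns. Prickle2, a planar polarity gene, had 8.43 in Bsecs, 8.67 in KO luminal cells and 45.5 in WT luminal cells, against 54.4 and 114 in the smaller and larger basal columns. Bsecs was thus below both basal columns in both genes. It was near KO luminal cells in Prickle2 and not below the luminal columns in Gpc3. Of this list, 4 of 12 and 6 of 14 genes at the mean value were past 4-fold lower against the smaller and larger basal columns, and 1 of 11 and 2 of 12 against KO and WT luminal cells, Sdc1 being the 1 higher each time.

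Of 18 destruction complex and Dishevelled genes, 16 reached the mean value against either basal column, of which 2 were past 4-fold lower in Bsecs against the smaller and 1 against the larger. Against KO luminal cells 2 of 17 were lower and 1 higher, and against WT luminal cells 2 of 16 were lower. These shares are near or below those of all genes. Ctnnb1, beta-catenin, had 1301 normalised counts in Bsecs, 1241 in KO luminal cells and 1339 in WT luminal cells, against 1775 and 1349 in the smaller and larger basal columns. Apc, a scaffold of the destruction complex, had 587 in Bsecs, 2035 in KO luminal cells and 2734 in WT luminal cells, against 583 and 763 in the smaller and larger basal columns. Amer1, an Apc-binding membrane protein, had 4.21 in Bsecs, 36.9 in KO luminal cells and 27.7 in WT luminal cells, against 11.9 and 66.35 in the smaller and larger basal columns. Both Apc and Amer1 were thus lower in Bsecs than in luminal cells. Btrc, which marks beta-catenin for breakdown, had 14.8 in Bsecs, 51.3 in KO luminal cells and 39.3 in WT luminal cells, against 86.3 and 26.0 in the smaller and larger basal columns. Apc2, a relative of Apc, had 5.27 in Bsecs, 27.5 in KO luminal cells and 9.82 in WT luminal cells, against 1.33 and 11.5 in the smaller and larger basal columns.

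Of 15 nuclear factors, 11 reached the mean value against the smaller basal column, of which 3 were past 4-fold lower and 1 higher in Bsecs. Against the larger column 4 of 12 were lower, against KO luminal cells 4 of 12 were lower, and against WT luminal cells 1 of 11 was lower and 2 were higher. Tcf7l2, a TCF factor that binds beta-catenin, had 7.38 normalised counts in Bsecs, 72.3 in KO luminal cells and 73.2 in WT luminal cells, against 25.2 and 70.2 in the smaller and larger basal columns. Tle2 and Tle4, corepressors of TCF factors, had 3.16 and 13.7 in Bsecs, 75.9 and 84.6 in KO luminal cells and 2.68 and 43.8 in WT luminal cells, against 0 and 134 in the smaller and 4.81 and 69.2 in the larger basal column. All 3 genes were lower in Bsecs than in KO luminal cells. Ctnnbip1, an inhibitor of beta-catenin binding to TCF factors, had 32.7 in Bsecs, 50.6 in KO luminal cells and 38.4 in WT luminal cells, against 5.31 and 68.3 in the smaller and larger basal columns.

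Of 18 genes often used as Wnt targets, several being inhibitors or ligases counted above, 10 reached the mean value against the smaller basal column, of which 4 were past 4-fold lower and 1 higher in Bsecs, and 11 against the larger, of which 3 were lower and 1 higher. Against KO luminal cells 4 of 11 were higher and 1 lower, and against WT luminal cells 4 of 10 were higher and 1 lower. Axin2, a direct target, had 5.27 normalised counts in Bsecs, 0.723 in KO luminal cells and 0 in WT luminal cells, against 22.6 and 4.81 in the smaller and larger basal columns. Procr, a marker of mammary stem-like cells, had 160 in Bsecs, 18.8 in KO luminal cells and 5.36 in WT luminal cells, against 181 and 636 in the smaller and larger basal columns. Bsecs lay between the luminal and the larger basal column for Procr. Wisp2 had 0 in Bsecs, 33.2 in KO luminal cells and 149 in WT luminal cells, against 0 and 7.69 in the smaller and larger basal columns. Nkd1, a feedback inhibitor, had 0 in Bsecs and in both luminal columns, against 33.2 and 49.0 in the smaller and larger basal columns. The targets past 4-fold were thus mostly lower in Bsecs against the basal columns and mostly higher against the luminal columns.

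Between KO and WT luminal cells, where 5.88% of all genes were past 4-fold higher and 4.96% lower in KO, the list genes past it were 1 higher and 1 lower of 5 in the secretion list, 0 of 3 inhibitors, 2 lower of 13 membrane and polarity genes, 0 of 16 in the destruction complex list, 2 higher of 12 nuclear factors and 1 lower of 10 targets, each over the genes at the mean value. The nuclear factors higher in KO luminal cells were Tle2, 27.9-fold (9.28 to 137), and Bcl9, 6.11-fold (4.16 to 9.26). Between the smaller and the larger basal columns, where 5.98% of all genes were higher and 8.05% lower in the smaller, they were 1 lower of 4 in the secretion list, 1 higher and 2 lower of 5 inhibitors, and 1 higher and 3 lower of 14 membrane and polarity genes. In the destruction complex list 1 of 17 was higher and 2 lower, of 12 nuclear factors 2 were lower, and of 11 targets 1 was higher and 1 lower. Wif1 was the inhibitor higher in the smaller column, at 7.98-fold (5.61 to 11.7).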

How the data were processed

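RNA of sorted cells was amplified with a kit for small inputs and sequenced, per the labels' protocols. STAR, DESeq and the build mm9 are named in the submitters' processing notes; counter, strand setting and annotation are not stated. Per the file headers, the authors deposited for each of 6 comparisons the mean signal of either group (normalised counts), their ratio (fold change) and an unadjusted p-value. Dividing a column's means by 1 smallest step gave whole reads for 100% of values (tolerance 0.01), and these reads were used. The steps of the columns of a table multiply to 1, as size factors of exactly 2 columns do, so the deposited p-values hold no spread between replicates and compare columns, not conditions. The files hold 0 columns per library and 0 of other origin.

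Levels use median-of-ratios factors over the 5 distinct columns; folds use each table's own scale. Calls are the authors' p-values, Benjamini-Hochberg adjusted across every gene having one, under 0.05. The 4-fold rule needs a mean of at least 10 normalised counts. Intervals are exact binomial (Clopper-Pearson, 95%) for the read split and, like the floor of 3 reads used for a 0 in a column, cover counting error only. The alternative count test was edgeR 4.0.16's exact test (R 4.3.3) with an assumed dispersion of 0.16, also run on simulated counts. Those counts had at most the assumed dispersion, so they cannot show whether it holds for these columns. Gene lengths are from GENCODE M21 (GRCm38), which is not the authors' build. The plan gave values in every column to members with at least 30 reads in a column, and to up to 3 genes of each other list with the largest folds; Wls, Ctnnb1, Apc, Axin2, Tcf7l2, Bcl9, Notum and members with fewer reads were named after their values were seen. Spreadsheet dates had replaced 27 symbols. The members and the lists were chosen with earlier results of these data known.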

Additional observations from a re-analysis of the deposited data

How the results depend on the processing

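With a minimum mean value of 50 in place of 10, counts of members past 4-fold became 3 and 6 for Bsecs against the smaller and larger basal columns, 2 and 3 against KO and WT luminal cells, 1 for KO over WT luminal cells and 2 between the basal columns. With a fold of 2 they became 15 and 13 for Bsecs against KO and WT luminal cells and 8 between the basal columns. An unadjusted p under 0.05 gave 3 and 5 members for Bsecs against the smaller and larger basal columns, 2 and 3 against KO and WT luminal cells, and 1 in either remaining comparison. edgeR's exact test gave 7 for Bsecs against either basal column and 3 and 5 against KO and WT luminal cells, with TMM factors and with size factors alike.

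Fzd7 stayed under 0.05 in all 3 alternatives run on it. Its adjusted p was 8.68e-06 to 0.0171 against the smaller and 5.40e-07 to 0.0144 against the larger basal column. The alternatives were the same DESeq p-values adjusted over fewer genes, and edgeR's exact test with TMM factors and with size factors. All reused the same 1 column per group, and the edgeR values rest on the assumed dispersion of 0.16, so none checks replication. Scaling by total reads without Rn45s shifts the log2 folds of Bsecs by -0.20 to -0.36, and with Rn45s by -0.50 to -0.77. Over both scales, chosen for single genes after seeing the data, 8 of 70 values of named folds left the counting interval, all 8 with Rn45s in the total. The shifts are smaller than a 4-fold difference, so no named fold past it could change sign. The members past 4-fold did change, however. Against KO luminal cells, 5 higher and 3 lower members became 4 and 4 without Rn45s and 3 and 5 with it. Against the larger basal column, 5 higher and 5 lower became 4 and 7 with Rn45s. With Rn45s, Wnt5b over the larger basal column and Ror1 over KO luminal cells fell under 4-fold, at log2 folds of 1.88 and 1.97. The lineage split held 7 to 12 members over all settings, 3 of which, leaving out a column each, were chosen after seeing the data. Wnt5b was lost from it with totals without Rn45s, and the other settings kept all 8 genes.

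No paired analysis was possible because the files hold no values per library, and for the same reason leaving out a library was not run. Low counts limit, among others, the ratios of Lgr5, Wnt2b, Wnt4, Wnt6, Wnt9a and Wnt11, which rest on 1 to 3 reads in a column.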
